A study of Mus musculus with 4 samples.

Results

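The 9 genes described here encode the enzymes that write and erase DNA methylation and the core of the Polycomb complex that writes histone H3 lysine 27 trimethylation. They are the DNA methyltransferases Dnmt1 and Dnmt3a, the dioxygenases Tet1, Tet2 and Tet3, and the Polycomb repressive complex 2 (PRC2) genes Ezh1, Ezh2, Eed and Suz12. They were taken by gene symbol from a deposited expression table of 17039 genes. All 9 had a row, and all 9 were among the 12887 genes with enough reads to be tested. RNA was sequenced from T cells isolated by magnetic separation from spleens of C57BL/6 mice, labelled as splenic T cells and, in the series title, as CD8+. The AAV-IL-27 group carried a recombinant adeno-associated virus that expresses interleukin-27, given intramuscularly for a month, and the AAV-ctrl group carried a control virus. There were 2 libraries in each group, numbered 1 and 3, from 4 mice in all. The sources used here give no age of the mice, no insert of the control virus and no promoter for the interleukin-27 gene.

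Methylation of cytosines in CpG dinucleotides is copied to the new strand after DNA replication by Dnmt1, while Dnmt3a places methyl groups on previously unmethylated sites. The Tet enzymes oxidise methylcytosine, which starts its removal. PRC2 holds 1 of the alternative catalytic subunits Ezh1 and Ezh2 together with Eed and Suz12, and the mark it writes keeps genes silent. Ezh2 is typical of dividing cells and Ezh1 of resting ones. In CD8 T cells Dnmt3a and Ezh2 are known for silencing genes of the naive and memory states during effector differentiation, and Tet2 for restraining clonal expansion.

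Of the 9 genes, Ezh2, Dnmt1 and Suz12 rose in AAV-IL-27 T cells, Tet1, Tet3 and Ezh1 fell, and Dnmt3a, Tet2 and Eed did not pass the test. Ezh2 changed most, to 2.2-fold of AAV-ctrl. A gene was called changed when its p from edgeR's quasi-likelihood test, two-sided and adjusted by Benjamini-Hochberg over all 12887 genes, was under 0.05. By that rule 6 of the 9 genes were called, against 39% of all tested genes, with 21.3% of all tested genes higher and 17.7% lower. In CPM, reads scaled to library size and by TMM factors, the groups did not overlap in the same 6 genes, as in 71.5% of all tested genes. The factors were 0.983 in both AAV-IL-27 libraries and 1.02 in both AAV-ctrl libraries. Overlap without these factors was not counted. The median log2 fold change was 0.01 over the 9 genes and -0.00528 over all tested genes.

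Sequence at listed starts of Ezh2, Suz12 and Dnmt1 is shown because all 3 genes that rose had a match there to a consensus for E2F factors, the regulators of cell cycle genes. The promoter of Ezh1, which fell, is set beside them and had no match. The search covered 250 bases before to 50 bases after the starts listed in a RefSeq promoter table (build GRCm38.p6), on both strands, for TTTNGCGC or TTTNCCGC. For Ezh2, Tet1, Tet2, Tet3 and Dnmt3a the gene's RefSeq span reaches further upstream than any listed start, and those outer ends were not searched as starts. The first 3 lines give the longest stretch of each window outside exons annotated by GENCODE, and the last 3 lines give 30 bases around the matches that lie in annotated exons. All run 5′ to 3′ on the gene's strand, with the E2F matches in capitals.
Suz12 promoter: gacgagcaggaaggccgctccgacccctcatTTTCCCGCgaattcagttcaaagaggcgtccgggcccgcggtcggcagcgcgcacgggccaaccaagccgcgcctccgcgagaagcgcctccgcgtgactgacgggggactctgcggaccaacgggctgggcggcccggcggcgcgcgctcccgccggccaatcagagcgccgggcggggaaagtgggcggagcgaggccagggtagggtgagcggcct
Ezh2 promoter: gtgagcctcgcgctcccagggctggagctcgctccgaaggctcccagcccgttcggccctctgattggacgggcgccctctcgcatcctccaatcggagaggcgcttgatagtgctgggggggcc
Ezh1 promoter: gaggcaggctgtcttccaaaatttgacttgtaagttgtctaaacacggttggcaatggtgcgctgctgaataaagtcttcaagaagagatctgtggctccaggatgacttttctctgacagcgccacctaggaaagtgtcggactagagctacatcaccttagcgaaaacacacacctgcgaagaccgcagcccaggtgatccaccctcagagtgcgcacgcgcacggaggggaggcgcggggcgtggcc
Ezh2 site: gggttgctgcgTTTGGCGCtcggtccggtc
Dnmt1 first site: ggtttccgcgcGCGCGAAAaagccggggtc
Dnmt1 second site: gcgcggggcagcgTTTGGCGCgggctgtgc
The promoter stretches lie at chr11:79992856-79993105 on the plus strand for Suz12, chr6:47595059-47595183 on the minus strand for Ezh2 (before its listed start but inside the gene's outer span) and chr11:101226464-101226713 on the minus strand for Ezh1. The sites lie at chr6:47595009-47595038 for Ezh2 and at chr9:20952824-20952853 and chr9:20952574-20952603 for Dnmt1, all on the minus strand. The match in Suz12 lies before its start, and that in Ezh2 begins 3 bases after its start. Those of Dnmt1 are in the window of the innermost of its 3 listed starts. The first lies before that start, within an annotated exon, and the second begins 33 bases after it. Exons of any gene on either strand were counted here. A match was found in 3.51% of all 32851 windows of this length. By gene, 3 of the 9 enzyme genes had a match in any window, against 6.78% of the tested genes that have a window. The share was 9.13% among genes that rose, 5.8% among genes that fell and 26.9% among 26 proliferation genes with a window. The windows of the 9 genes held 51.3% to 82.3% GC and 2 to 57 CpG dinucleotides. The medians over all windows were 52.7% and 7. Both forms of the E2F consensus contain CpG, and Dnmt1 and Dnmt3a had 3 windows each. The part of base composition and window number in these shares was not tested. CCAAT, the NF-Y box, stood in the windows of Ezh2, Suz12, Dnmt1, Tet3 and Eed and in 37.4% of all windows. TTTGAA, the element known as CHR, stood in those of Dnmt1, Eed and Suz12 and in 17.9% of all windows. TTCNNNGAA, a STAT consensus, and an interferon-stimulated response element were found in none of the 13 windows of the 9 genes, and in 8.3% and 3.44% of all windows. These are letter matches and say nothing of binding.

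The labelled cell type was checked first. FPKM is the authors' value per gene length and library size. The marker lists show more than 1 cell type in the preparations, and in bulk RNA fewer cells of a type and less RNA per cell cannot be told apart. Cd3e, Cd8a and Cd8b1 were abundant (Cd8a 408.09 and 349.25 FPKM in AAV-IL-27, against 320.77 and 334.97 FPKM in AAV-ctrl), and Cd4 was low, at 8.21 to 10.1 FPKM. The 14 T cell markers summed to 3390 and 2993 FPKM in AAV-IL-27, against 2915 and 2949 FPKM in AAV-ctrl, with 9 higher and 1 lower. B cell markers were abundant too. The 12 summed to 3972 and 4384 FPKM in AAV-IL-27, against 5860 and 5336 FPKM in AAV-ctrl, with 5 lower and 0 higher. Most of that sum was the single gene Cd74, at 2973.85 and 3003.35 FPKM in AAV-IL-27, against 3739.57 and 3470.7 FPKM in AAV-ctrl. The 16 neutrophil markers, whose precursors divide, summed to 1048 and 1722 FPKM in AAV-IL-27, against 36.47 and 27.11 FPKM in AAV-ctrl, with 14 higher and 0 lower, and the granule gene Elane had 7.87 and 15.6 FPKM in AAV-IL-27, against 0.35 and 0.07 FPKM in AAV-ctrl. Natural killer markers (11 genes, 8 lower and 1 higher) summed to 208.7 and 215.8 FPKM in AAV-IL-27, against 304.6 and 297.4 FPKM in AAV-ctrl. Erythroid precursor markers (9 of 13 tested, 1 higher and 0 lower) summed to 58.75 and 80.92 FPKM in AAV-IL-27, against 92.91 and 68.38 FPKM in AAV-ctrl, and Klf1 and Epor were among those too low to test. Macrophage and dendritic markers (16 genes, 1 higher and 8 lower) summed to 222.3 and 184.6 FPKM in AAV-IL-27, against 250 and 217.5 FPKM in AAV-ctrl. Among the called markers of these lists, all but Eomes (natural killer) and Cd68 (macrophage) were lower in the B cell, natural killer and macrophage lists. The 7 uncalled genes of the macrophage and dendritic list went both ways. The dendritic genes Xcr1, Batf3, Itgax and Flt3 had log2 fold changes of 0.90, 0.61, 0.53 and 0.51. Siglech, Csf1r and Spic stood at -0.09, -0.75 and -1.30. The part of these cell types in the changes of the 9 genes was not tested.

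The level of each gene is given in FPKM, and the test was run on the read counts. In AAV-IL-27 the order of mean FPKM, from high to low, was Suz12, Dnmt1, Ezh2, Eed, Ezh1, Tet3, Dnmt3a, Tet2 and Tet1. In AAV-ctrl it was Suz12, Dnmt1, Eed, Ezh1, Tet3, Ezh2, Dnmt3a, Tet2 and Tet1. The place of Ezh2 was the only difference between the orders, above Eed, Ezh1 and Tet3 in AAV-IL-27 and below them in AAV-ctrl. No neighbours in either order overlapped between libraries, but Tet3 and Ezh2 in AAV-ctrl were apart by little more than rounding, with 16.43 FPKM for the lower Tet3 library and 16.38 FPKM for the higher Ezh2 library.

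**Figure D1:**
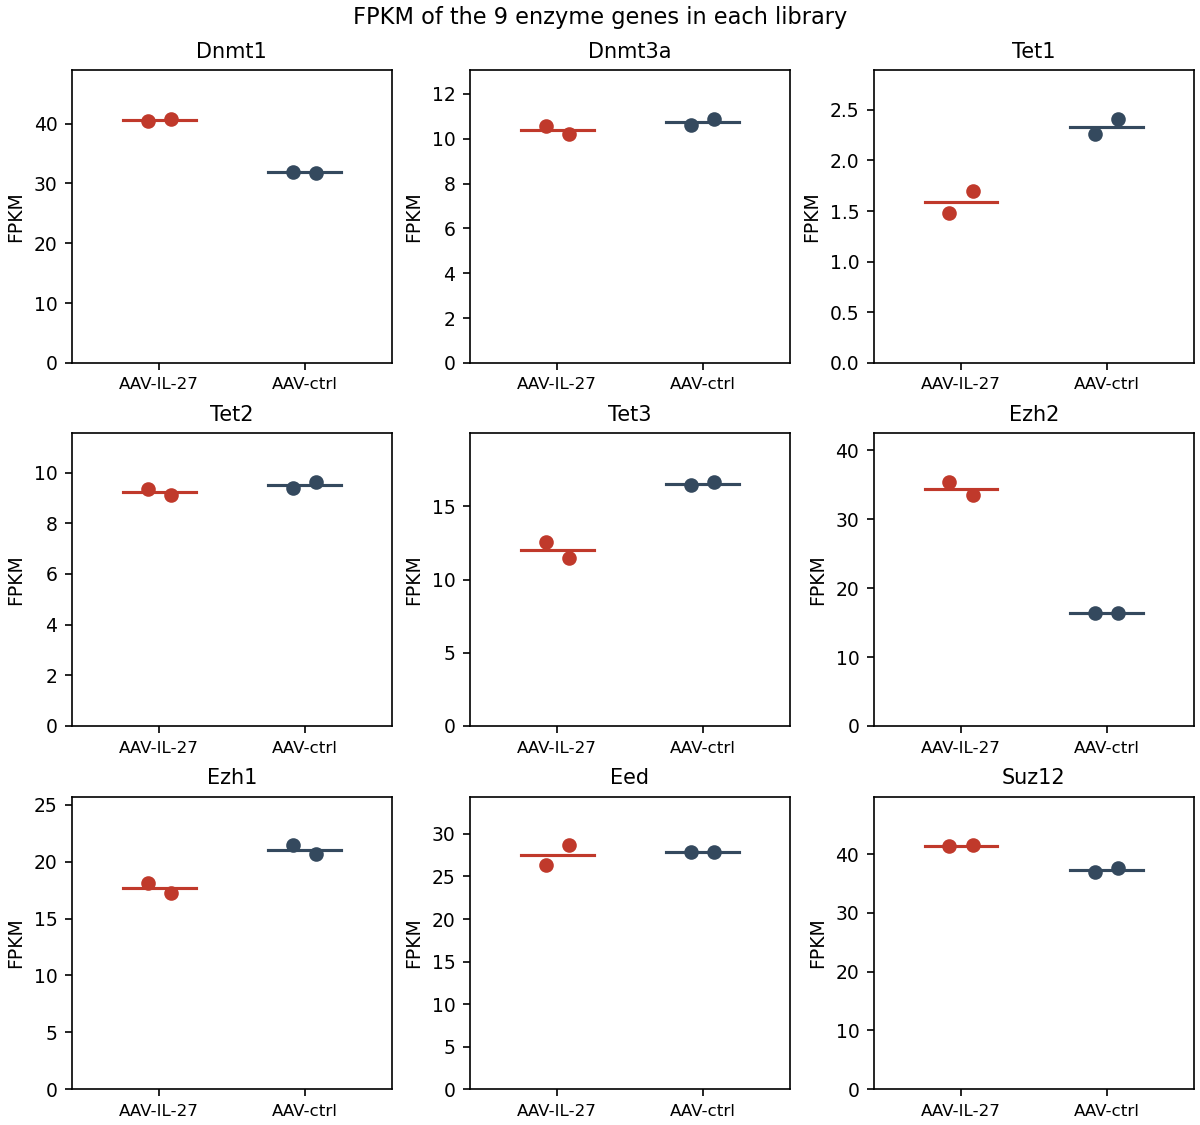
Each panel plots the FPKM of 1 gene (y axis, from 0) in the AAV-IL-27 libraries (red) and the AAV-ctrl libraries (dark blue). Points are libraries and bars are means of 2. Ezh2 stands at 35.35 and 33.45 FPKM in AAV-IL-27 against 16.38 and 16.35 FPKM in AAV-ctrl.

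Ezh2, the catalytic subunit of PRC2 in dividing cells (NCBI Gene 14056, chromosome 6, 47530274 to 47595270), had 1484 and 1429 reads in AAV-IL-27, against 676 and 665 reads in AAV-ctrl. Its level averaged 34.4 ± 1.34 FPKM in AAV-IL-27 libraries and 16.4 ± 0.0212 FPKM in AAV-ctrl (SD, n = 2 each). Both AAV-IL-27 libraries lay far above both AAV-ctrl libraries, and the gap was many times the spread within either group. The log2 fold change was 1.14 ± 0.0588 (SE, edgeR adjusted p = 1.09e-06), with a 95% interval of 1.00 to 1.27. It was higher than that of 95% of all tested genes, and a rise of at least 2-fold was called for 5.25% of them.

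Ezh1, the alternative catalytic subunit (NCBI Gene 14055, chromosome 11, 101191115 to 101226463), moved the other way by a small factor. It had 18.13 and 17.22 FPKM in AAV-IL-27, against 21.43 and 20.67 FPKM in AAV-ctrl, without overlap. It fell by 0.20 ± 0.0557 on the log2 scale (SE, edgeR adjusted p = 0.0182, 95% interval -0.33 to -0.08), a change of -13.1%. This call was not held by DESeq2 (adjusted p = 0.132), nor without AAV-IL-27 replicate 3 (0.0565), AAV-ctrl replicate 1 (0.156) or AAV-ctrl replicate 3 (0.081).

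Within the pair of catalytic subunits the majority transcript differed between the groups. Ezh2 made up 66.1% and 66.0% of the summed FPKM of Ezh1 and Ezh2 in AAV-IL-27, against 43.3% and 44.2% in AAV-ctrl. Ezh2 thus exceeded Ezh1 in both AAV-IL-27 libraries and lay under it in both AAV-ctrl libraries. The log2 ratio of Ezh2 to Ezh1 averaged 0.961 ± 0.00383 in AAV-IL-27 libraries and -0.363 ± 0.035 in AAV-ctrl (SD, n = 2 each), a difference of 1.32. Library scaling cancels in this ratio. An exact two-sided permutation test gave p = 0.333, which is the smallest p that 2 libraries against 2 allow. The summed level of the pair was 53.48 and 50.67 FPKM in AAV-IL-27, against 37.81 and 37.02 FPKM in AAV-ctrl.

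The non-catalytic core of PRC2 changed little. Suz12, which holds the complex together (NCBI Gene 52615, chromosome 11, 79993106 to 80034123), had 41.36 and 41.52 FPKM in AAV-IL-27, against 37.00 and 37.70 FPKM in AAV-ctrl. The libraries did not overlap, and Suz12 rose by 0.20 ± 0.0465 on the log2 scale (SE, edgeR adjusted p = 0.00833), or 14.8%. The call was lost when AAV-ctrl replicate 1 (adjusted p = 0.105) or replicate 3 (0.0698) was left out, and in limma on FPKM (0.0516 and 0.0511 with 1 or 0.1 added). Scaled to T cell markers it stood at -0.011 (adjusted p = 0.931). That scaling shifted all genes by nearly the same amount and moved the median of all tested genes to -0.217. Relative to this median Suz12 stood at 0.206, which repeats the main estimate by construction and adds no support to the call.

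Eed, the subunit that binds the trimethyl mark (NCBI Gene 13626, chromosome 7, 89954654 to 89980976), had 26.40 and 28.66 FPKM in AAV-IL-27, against 27.92 and 27.88 FPKM in AAV-ctrl. The AAV-ctrl libraries lay between the AAV-IL-27 libraries. Its log2 fold change was 0.03 (edgeR adjusted p = 0.73), with a 95% interval of -0.11 to 0.18. The summed Ezh1 and Ezh2 level was 2.03 and 1.77 times the Eed level in AAV-IL-27, against 1.35 and 1.33 times in AAV-ctrl. Against Suz12 the same sum was 1.29 and 1.22 times in AAV-IL-27, and 1.02 and 0.982 times in AAV-ctrl. These last ratios describe transcripts, not subunits of assembled complexes.

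Dnmt1, the maintenance methyltransferase (NCBI Gene 13433, chromosome 9, 20907206 to 20959888), rose by less than Ezh2. It had 3490 and 3537 reads in AAV-IL-27, against 2702 and 2684 reads in AAV-ctrl. In FPKM these were 40.38 and 40.77 in AAV-IL-27, against 31.89 and 31.80 in AAV-ctrl, with libraries of a group nearly equal and the groups apart. The log2 fold change was 0.40 ± 0.046 (SE, edgeR adjusted p = 0.000163, 95% interval 0.30 to 0.50), a rise of 32%. Scaled to T cell markers it did not pass (0.19, adjusted p = 0.0855). Relative to the shifted median of all genes Dnmt1 then stood at 0.406, which repeats the main estimate by construction and adds no support to the call.

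Dnmt3a, the de novo methyltransferase (NCBI Gene 13435, chromosome 12, 3801559 to 3914443), was not found to change. It had 10.59 and 10.20 FPKM in AAV-IL-27, against 10.61 and 10.88 FPKM in AAV-ctrl, without overlap, whereas in CPM the groups overlapped. Its log2 fold change was 0.00 (edgeR adjusted p = 0.965), with a 95% interval of -0.11 to 0.12 under TMM scaling. With factors from T cell markers it stood at -0.208 (edgeR adjusted p = 0.0643), outside that interval but still not passing. The level of Dnmt1 was 3.81 and 4.00 times that of Dnmt3a in AAV-IL-27, against 3.01 and 2.92 times in AAV-ctrl. Dnmt3b, the other de novo enzyme, stood lower, at 2.96 and 2.73 FPKM in AAV-IL-27, against 3.04 and 3.38 FPKM in AAV-ctrl (log2 fold change -0.12, adjusted p = 0.451).

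Among the Tet dioxygenases, Tet3 and Tet1 fell and Tet2 did not pass. Tet3, the most abundant of them in every library (NCBI Gene 194388, chromosome 6, 83362373 to 83457208), had 12.57 and 11.44 FPKM in AAV-IL-27, against 16.43 and 16.65 FPKM in AAV-ctrl. Both AAV-IL-27 libraries were below both AAV-ctrl libraries. It fell by 0.41 ± 0.0559 on the log2 scale (SE, edgeR adjusted p = 0.000476, 95% interval -0.53 to -0.28), a change of -24.7%.

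Tet1, the family member known best from embryonic stem cells (NCBI Gene 52463, chromosome 10, 62804570 to 62887469), was the least abundant of the 9 genes. Its estimated reads were 322.97 and 322.38 in AAV-IL-27, against 474.3 and 464.81 in AAV-ctrl. It fell by 0.53 ± 0.0784 on the log2 scale (SE, edgeR adjusted p = 0.000796, 95% interval -0.70 to -0.35), a change of -30.5%. In FPKM it stood at 1.48 and 1.70 in AAV-IL-27, against 2.26 and 2.41 in AAV-ctrl, with both AAV-IL-27 libraries below both AAV-ctrl libraries. The AAV-IL-27 libraries had nearly equal reads but unequal FPKM, because the transcript length implied by the authors' values (reads over FPKM and library size) differed between libraries. That length was 13.5 and 11.7 kb in AAV-IL-27, against 13.3 and 12.3 kb in AAV-ctrl, while for Dnmt1 it was 5.36 to 5.37 kb in all 4. The direction of Tet1 was the same on both scales.

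Tet2, a frequent target of mutation in blood cancers (NCBI Gene 214133, chromosome 3, 133463677 to 133545136), had 1405 and 1373 reads in AAV-IL-27, against 1381 and 1410 reads in AAV-ctrl. In FPKM these were 9.37 and 9.12 in AAV-IL-27, against 9.39 and 9.62 in AAV-ctrl. The groups overlapped in CPM and were barely apart in FPKM. Its log2 fold change was 0.01 (edgeR adjusted p = 0.906), with a 95% interval of -0.11 to 0.13. The 3 Tet genes summed to 23.42 and 22.26 FPKM in AAV-IL-27, against 28.08 and 28.68 FPKM in AAV-ctrl. Tet3 made up 53.7% and 51.4% of that sum in AAV-IL-27, against 58.5% and 58.1% in AAV-ctrl.

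Set against each other within a library, Dnmt1 and the summed Tet genes differed between the groups. Dnmt1 was 1.72 and 1.83 times the summed Tet level in AAV-IL-27, against 1.14 and 1.11 times in AAV-ctrl. The log2 ratio differed by 0.663, with SDs of 0.0616 in AAV-IL-27 libraries and 0.0245 in AAV-ctrl (n = 2 each, exact permutation p = 0.333, the smallest possible). DNA methylation itself was not measured.

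**Figure D2:**
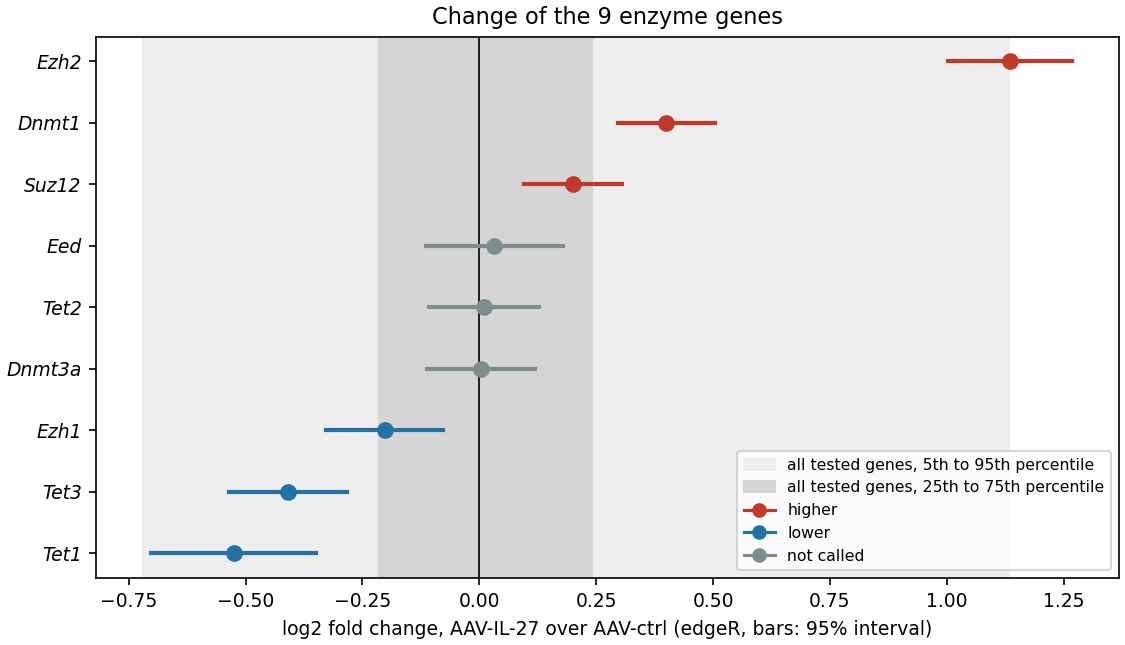
The log2 fold change of each of the 9 genes, AAV-IL-27 over AAV-ctrl (x axis), from edgeR, with its 95% interval. Red points rose, blue points fell and grey points did not pass, and the shaded bands hold the middle of all tested genes, from -0.214 to 0.241 (25th to 75th percentile) and from -0.72 to 1.13 (5th to 95th percentile). Ezh2 sits at the upper edge of the wider band.

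Markers of dividing cells moved with Ezh2 and Dnmt1. Of 30 proliferation markers 29 rose, 0 fell and 1, the licensing factor Cdt1, did not pass, and their median log2 fold change was 1.76. Their summed level was 1108 and 1120 FPKM in AAV-IL-27, against 496.8 and 485.7 FPKM in AAV-ctrl. The mitotic kinase gene Cdk1 rose by 2.25 ± 0.135 on the log2 scale, the mitotic cyclin gene Ccnb2 by 2.19 ± 0.0931, the replicative helicase gene Mcm2 by 0.72 ± 0.0521 and the thymidylate synthase gene Tyms by 0.40 ± 0.0627 (SE, edgeR, all called; Tyms did not pass when scaled to T cell markers, adjusted p = 0.117). Abundant genes weigh most in the sum, such as Pcna, which rose by 0.78 on the log2 scale. On that sum Ezh2 rose almost as much as the markers, but its log2 fold change of 1.14 was below their median of 1.76. The log2 ratio of Ezh2 to their summed FPKM was -4.97 and -5.065 in AAV-IL-27, against -4.923 and -4.893 in AAV-ctrl, a difference of -0.11 (exact permutation p = 0.333, the smallest possible). On CPM in place of FPKM the difference was -0.194. Dnmt1 rose by less than the markers. Its log2 ratio to the markers was -4.778 and -4.78 in AAV-IL-27, against -3.962 and -3.933 in AAV-ctrl, a difference of -0.832. The part of proliferation in the changes of the 9 genes was not tested.

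**Figure D3:**
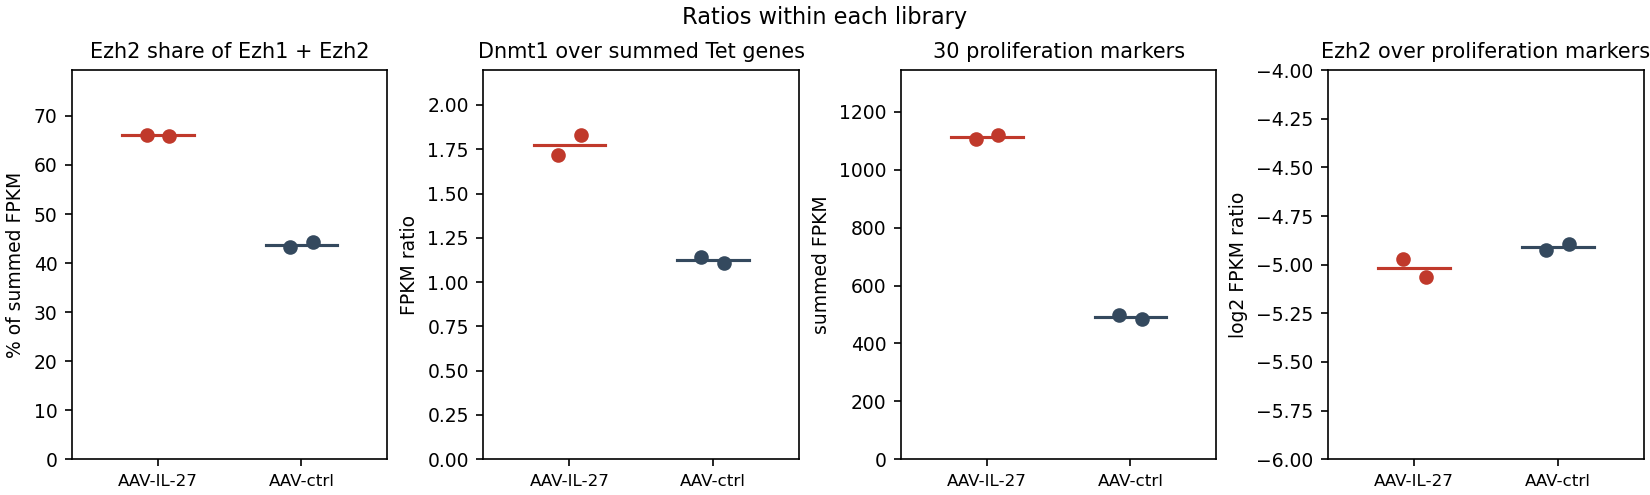
Values within each library: the share of Ezh2 in the summed FPKM of Ezh1 and Ezh2 (%), the ratio of Dnmt1 to the summed Tet genes, the summed FPKM of 30 proliferation markers, and the log2 ratio of Ezh2 to that sum (y axis not from 0). Points are libraries, red for AAV-IL-27 and dark blue for AAV-ctrl, and bars are means of 2. The Ezh2 share is 66.1% and 66.0% in AAV-IL-27 against 43.3% and 44.2% in AAV-ctrl.

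Factors of the Rb and E2F pathway, which control cell cycle genes, were called in both directions. Among 19 such genes 11 rose, 2 fell and 6 stayed above the threshold (68.4% called against 39% of all genes, median log2 fold change 0.317). The repressor E2f7 had 1.84 and 2.25 FPKM in AAV-IL-27, against 0.41 and 0.44 FPKM in AAV-ctrl, and rose by 2.30 ± 0.188 (SE, edgeR adjusted p = 1.93e-05). Its partner E2f8 rose by 1.87 ± 0.101 (adjusted p = 1.43e-06). E2f5 fell by 0.49 ± 0.0926 and Tfdp2, a dimerisation partner of E2F proteins, by 0.27 ± 0.082, and Tfdp2 did not pass by DESeq2 (adjusted p = 0.225), nor with any 1 of the libraries left out (0.0516 to 0.234).

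The partners of the 9 enzymes were counted in 6 lists. Of 91 tested genes 19 rose, 23 fell and 49 did not pass, so 46.2% were called against 39% of all tested genes, with a median log2 fold change of -0.029. Without either AAV-ctrl library fewer partner genes were called, as were fewer of all tested genes. Scaled to T cell markers, 9 partner genes rose and 41 fell, beside 1414 higher and 4850 lower among all 12887 tested genes.

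Among 17 DNA methylation partners and readers 6 rose, 5 fell and 6 did not pass. Uhrf1, which brings Dnmt1 to newly replicated DNA, had 21.66 and 23.02 FPKM in AAV-IL-27, against 8.21 and 8.14 FPKM in AAV-ctrl. The libraries were far apart, and Uhrf1 rose by 1.49 ± 0.0653 on the log2 scale (SE, edgeR adjusted p = 4.42e-07), against 0.40 for Dnmt1. Hells, a chromatin remodeller needed for methylation of repeats, had 19.70 and 21.42 FPKM in AAV-IL-27, against 10.64 and 10.26 FPKM in AAV-ctrl (log2 fold change 0.98, adjusted p = 3.84e-06). Zbtb24 fell by 0.30 ± 0.069 and the methyl-CpG binding glycosylase gene Mbd4 by 0.28 ± 0.0759. Both calls were lost by DESeq2 (adjusted p = 0.0975 and 0.13) and without either AAV-ctrl library (0.0562 and 0.0686 for Zbtb24, 0.147 and 0.0618 for Mbd4), and that of Mbd4 also without AAV-IL-27 replicate 1 (0.0849).

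Among 19 genes of Tet cofactors and base excision repair, which removes oxidised methylcytosine, 4 rose, 4 fell and 11 did not pass. The glycosylase gene Neil3 had 7.71 and 8.16 FPKM in AAV-IL-27, against 2.00 and 2.64 FPKM in AAV-ctrl (log2 fold change 1.84, edgeR adjusted p = 1.89e-05). Gadd45b, a stress-induced gene, rose by 0.77 ± 0.0878. Cxxc5, a CXXC zinc finger protein that binds CpG, had 8.67 and 9.36 FPKM in AAV-IL-27, against 28.37 and 25.18 FPKM in AAV-ctrl. Its log2 fold change of -1.53 ± 0.0892 (adjusted p = 2.52e-06) was the largest fall in the 6 lists. D2hgdh, which clears the Tet inhibitor 2-hydroxyglutarate, fell by 0.47 ± 0.0839. Tdg, the glycosylase that excises oxidised methylcytosine, stood at 0.23 (adjusted p = 0.0217), a call lost under 9 of 14 alternative settings.

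Of 10 PRC2 accessory genes 2 rose, 3 fell and 5 did not pass. The Polycomb-like genes moved apart. Phf19 had 6.89 and 7.33 FPKM in AAV-IL-27, against 4.25 and 3.66 FPKM in AAV-ctrl (log2 fold change 0.85, edgeR adjusted p = 0.000116). Phf1 had 45.02 and 44.39 FPKM in AAV-IL-27, against 66.85 and 65.09 FPKM in AAV-ctrl (-0.51, adjusted p = 4.95e-05). The third Polycomb-like gene, Mtf2, did not pass (-0.09, adjusted p = 0.215). The histone chaperone gene Rbbp7 rose by 0.31 ± 0.0461, though not when scaled to T cell markers (adjusted p = 0.408). Jarid2, which helps to bring PRC2 to its targets, fell by 0.29 ± 0.0572, a call lost when AAV-ctrl replicate 3 was left out (adjusted p = 0.064).

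Of 25 genes of PRC1, the complex that ubiquitinates histone H2A, 2 rose, 9 fell and 14 did not pass, with a median log2 fold change of -0.185. Cbx7, a reader of the PRC2 mark, had 22.64 and 23.43 FPKM in AAV-IL-27, against 40.18 and 36.22 FPKM in AAV-ctrl, and fell by 0.69 ± 0.0635 (SE, edgeR adjusted p = 4.34e-05). Cbx2, a scarcer reader of the same family, fell by 0.58 ± 0.152 (adjusted p = 0.0154), but did not pass by DESeq2 (0.13) or without either AAV-ctrl library (0.139 and 0.0684). Phc2 and Yaf2 rose by 0.20 and 0.27. Neither passed by DESeq2 (adjusted p = 0.0639 and 0.244) or without either AAV-ctrl library, and Phc2 turned to -0.011 when scaled to T cell markers. Of 7 enzymes and partners that oppose Polycomb only Kdm6b, an H3 lysine 27 demethylase, was called. It fell by 0.18 ± 0.055 (adjusted p = 0.0257), and did not pass by DESeq2 (0.147) or without AAV-IL-27 replicate 3 (0.0791), AAV-ctrl replicate 1 (0.218) or AAV-ctrl replicate 3 (0.0764).

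Supply of S-adenosylmethionine, the methyl donor of Dnmt and Ezh enzymes, was represented by 13 genes, of which 5 rose, 1 fell and 7 did not pass. Mthfd2, a mitochondrial folate enzyme, had 26.16 and 24.16 FPKM in AAV-IL-27, against 12.14 and 12.46 FPKM in AAV-ctrl (log2 fold change 1.08, edgeR adjusted p = 6.29e-06). Shmt1, a cytosolic folate enzyme, rose by 0.58 ± 0.104. Mat2a, which makes S-adenosylmethionine, did not pass (0.07, adjusted p = 0.418). Mtr, the methionine synthase gene, fell by 0.28 ± 0.0655, a call lost when AAV-ctrl replicate 3 was left out (adjusted p = 0.112) and in limma on FPKM (0.0879 and 0.0841). Ahcyl2 rose by 0.16, lost as a call under 12 of those 14 settings.

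As a comparison among chromatin enzymes, 25 other histone lysine methyltransferases and relatives were tested, and 4 rose, 7 fell and 14 did not pass (44% called, median -0.094). Nsd2, an H3 lysine 36 methyltransferase, had 17.17 and 19.94 FPKM in AAV-IL-27, against 8.07 and 8.26 FPKM in AAV-ctrl (log2 fold change 1.17, edgeR adjusted p = 8.84e-07), a rise of the size of that of Ezh2. Smyd2 rose by 0.44 ± 0.111, but did not pass by DESeq2 (adjusted p = 0.107), without either AAV-ctrl library (0.11 and 0.0673) or scaled to T cell markers (0.19). Prdm9, best known from meiosis, fell by 0.69 ± 0.0846 and Setd1b by 0.30 ± 0.0489.

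**Figure D4:**
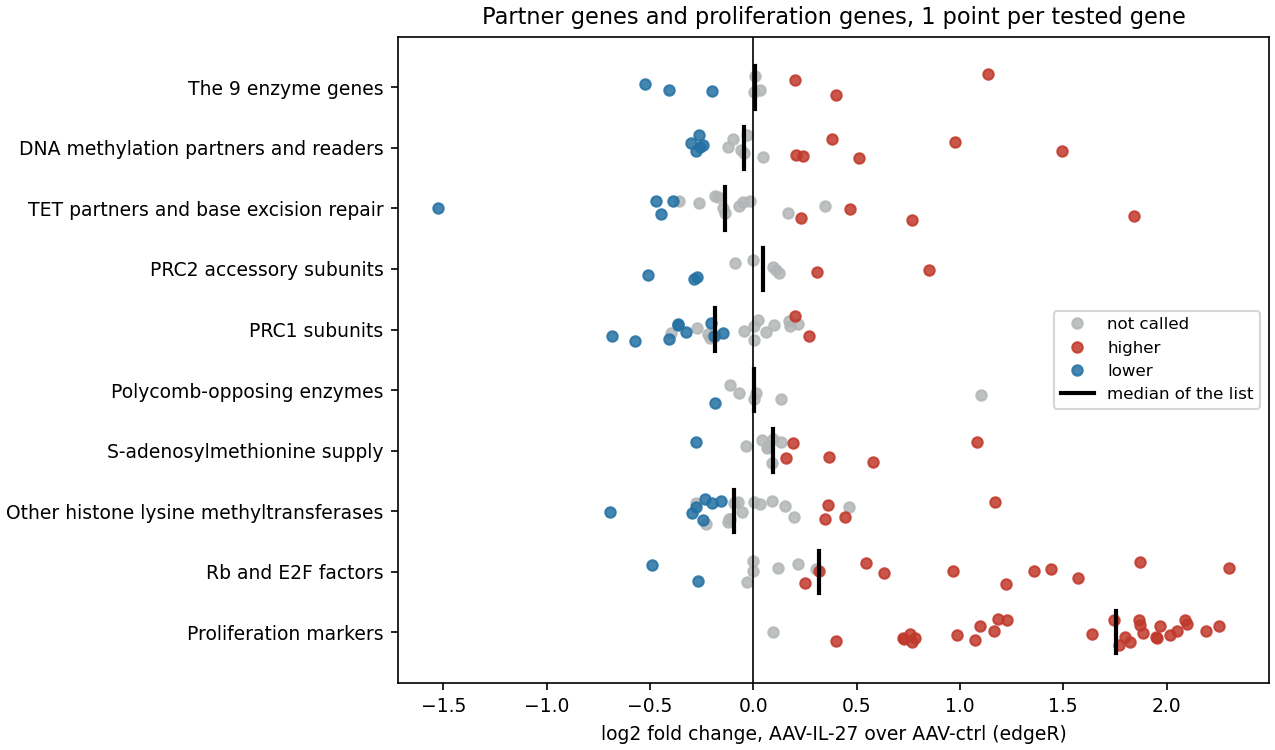
The log2 fold change, AAV-IL-27 over AAV-ctrl (x axis), of each tested gene in the 9 enzyme genes and 9 lists of related genes (rows). Red points rose, blue points fell, grey points did not pass, and black bars are list medians. The medians are 0.01 for the 9 enzyme genes, -0.185 for PRC1 subunits and 1.76 for proliferation markers.

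Genes whose silencing depends on promoter methylation or imprinting were mostly too low to test. Of 27 listed, 16 were in the table and 8 were tested. Igf2r, the imprinted receptor for insulin-like growth factor 2 and for mannose 6-phosphate, was the only one called. It had 25.55 and 24.99 FPKM in AAV-IL-27, against 10.63 and 11.58 FPKM in AAV-ctrl (log2 fold change 1.24, edgeR adjusted p = 5.04e-07). The germ cell gene Ddx4 stood at 0.26 and 0.35 FPKM in AAV-IL-27, against 0.22 and 0.30 FPKM in AAV-ctrl (adjusted p = 0.619).

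The genes nearest to Ezh2 and Tet1 in pattern were found by the distance of centred log2 CPM over the 4 libraries, among 10598 other genes. Nearest to Ezh2 were Irf1 (distance 0.0266), Entpd1 (0.0282) and Plin2 (0.038). Irf1, an interferon-induced transcription factor, had 250.91 and 234.52 FPKM in AAV-IL-27, against 114.72 and 113.38 FPKM in AAV-ctrl. Nearest to Tet1 were AW549877 (0.018), the PRC2 accessory gene Phf1 (0.0182) and Mettl22 (0.021). By construction, over 4 libraries in 2 groups this measure ranks genes by fold change and by order within groups.

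**Figure D5:**
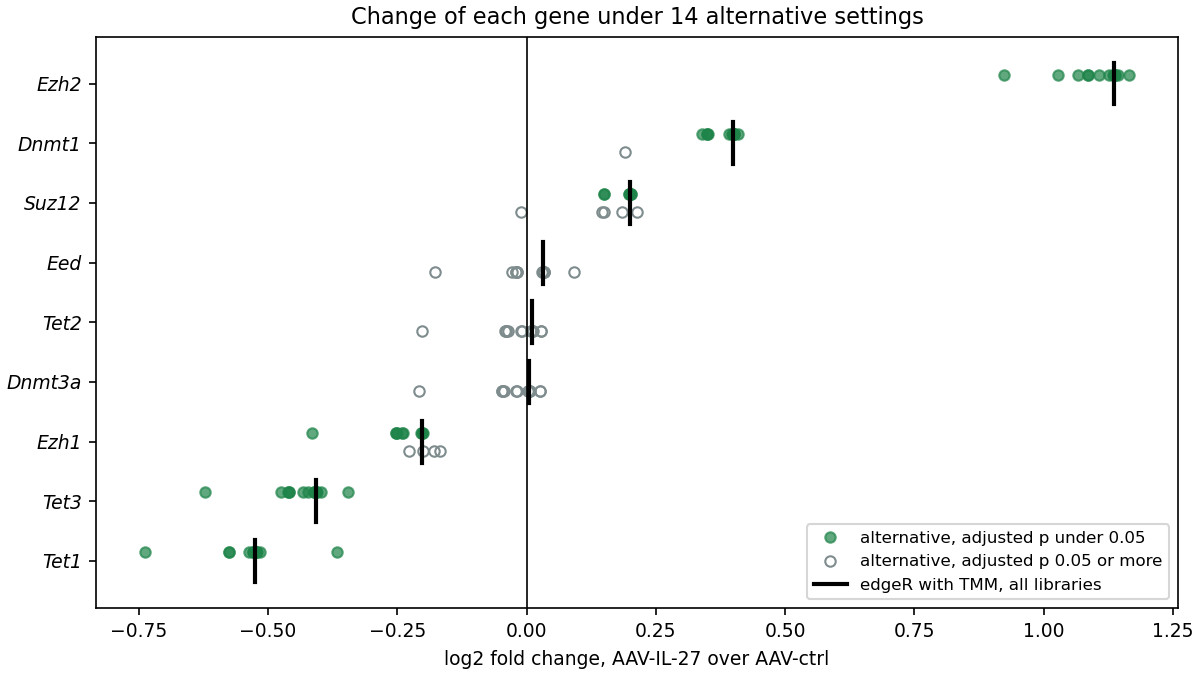
The log2 fold change of each of the 9 genes, AAV-IL-27 over AAV-ctrl (x axis), under 14 alternative settings. Filled points passed an adjusted p of 0.05, open points did not, and black bars are edgeR with TMM factors and all libraries. Ezh2, Tet1 and Tet3 passed under all 14, with Ezh2 between 0.923 and 1.16.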

How the data were processed

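RNA sequencing of splenic T cells was analysed from 2 AAV-IL-27 and 2 AAV-ctrl libraries, grouped by their titles. Per the submitters' processing notes, the tools were RSEM 1.2.12, HISAT2 2.0.4, DESeq2 1.4.5 and Bowtie2 2.2.5 and the build GRCm38.p6, with no role stated for any. The authors deposited expected counts per gene, which need not be whole (64.9% to 65.1% of each library's values over all 17039 genes, zeros included, are exactly whole). The authors' second set of values was taken as FPKM from its ratio to the counts, since the file headers name no unit. The table's 4 group-average columns were left aside. The sources used here do not say whether counting used strand.

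Counts were rounded, giving 15742476 to 16182426 per library, filtered with filterByExpr and scaled by TMM. Groups were compared with edgeR 4.0.16 (robust quasi-likelihood, no block, R 4.3.3), and standard errors were taken as the log2 fold change over the square root of F. Alternatives used DESeq2 1.42.0, limma 3.58.1, other factors, other filters, a replicate block, single libraries left out, and factors from T cell markers. Replicates were not copies of each other: chi-square over degrees of freedom was 6.47 within AAV-IL-27, 2.49 within AAV-ctrl and 40.4 to 45.3 across groups. The edgeR p-values test the group difference against the spread between single mice, which is estimated partly by sharing information over all tested genes. Coordinates and promoters come from RefSeq for the same build, matched by NCBI Gene number (16921 of 17039 genes) for coordinates. All 9 enzyme genes matched a promoter window. The 9 genes, the gene lists and the motifs were chosen with earlier results of these data known. Beside the 9 genes, those named are the 2 highest and 2 lowest called genes of each list whose mean log2 CPM reached 1, and the 3 genes nearest in pattern to the enzyme genes with the highest and lowest fold change. Dnmt3b, Tdg, Mtf2, Mat2a, Cdt1, Ddx4 and the marker genes were picked with their values known.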

Additional observations from a re-analysis of the deposited data

How the results depend on the processing

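The direction and call of Ezh2, Tet1 and Tet3 were the same under all 14 alternatives. The number of the 9 genes called ranged from 4 to 6. Over all tested genes, 3185 were called by DESeq2, against 5023 by edgeR, and between 2635 and 4886 with 1 library left out. Without 1 library, the partner genes called ranged from 20 to 44. With upper-quartile factors the calls over all genes split into 2362 higher and 2979 lower, against 2745 and 2278, and with factors from T cell markers into 1414 and 4850. With 1 added to each FPKM, the log2 ratio of Ezh2 to Ezh1 differed by 1.267, and with CPM the ratio of Ezh2 to proliferation markers by -0.194. Genes close to 0 changed sign, as did Suz12, Phc2 and Ahcyl2, all called as risen, with factors from T cell markers. None passed with its sign changed. Dnmt3a, Tet2 and Eed stood at -0.047, -0.041 and -0.018 with upper-quartile factors, at -0.046, -0.04 and -0.018 with library size alone, at -0.044, -0.036 and -0.02 in limma with 1 added to FPKM, at -0.047, -0.04 and -0.02 with 0.1 added, and at -0.208, -0.202 and -0.177 with factors from T cell markers, where Suz12 (-0.011), Phc2 (-0.011), Ahcyl2 (-0.054), Mat2a (-0.147) and Cdt1 (-0.116) turned too. With 1 library left out, Dnmt3a ranged from -0.021 to 0.027, Tet2 from -0.01 to 0.028 and Eed from -0.028 to 0.091. The cause of these differences was not tested. Among the other 40 named genes, 63 of 559 alternative values kept the direction but not the call, 1 gained it and 4 changed sign. No shared effect of the replicate numbers on expression was seen (correlation of replicate differences between groups -0.000711 across 12887 genes). This cannot tell whether libraries of the same number were prepared together. With the replicate block 4971 genes, 6 of the 9 enzyme genes and 42 partner genes were called. Counts per library ran from 322.38 for Tet1 to 3537 for Dnmt1, and 2 mice a group limit the precision.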
